A study of Monodelphis domestica with 7 samples.

Results

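The transcript levels of 3 axon guidance genes, Slit3 (ENSMODG00000007165), Robo3 (ENSMODG00000003861) and Efna4 (ENSMODG00000017115), were examined in the spinal cord of the grey short-tailed opossum, Monodelphis domestica. They are 3 of the 21314 genes in the count table and were picked by gene identifier. Slit3 and Robo3 belong to the Slit and Roundabout signalling system, and Efna4 belongs to the ephrin system. Slit proteins are secreted ligands, made for instance by the floor plate, that repel growing axons carrying Roundabout receptors. Robo3 is the Roundabout receptor of commissural neurons and is known for its part in letting their axons reach and cross the ventral midline. Efna4 encodes ephrin-A4, a membrane-anchored ligand that acts at cell contact on Eph receptor tyrosine kinases, and such contact often makes growth cones turn away.

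RNA-Seq was carried out on the cord segment rostral to thoracic level 10 (T10). Injured pups received a complete transection at T10 on postnatal day 7 (P7) or 28 (P28) and were killed 24 h later, at P8 or P29. Those groups were called P7+24h and P28+24h, and each had 2 libraries. The uninjured groups were the P8 control with 2 libraries and the P29 control with 1 library. Each library was made from RNA of 2 pooled pups. Pups of both sexes were used, and the labels name no transgene and no drug other than the anaesthetic. At P7 whole litters were operated on and separate litters served as controls. At P28 the controls were anaesthetised, uninjured littermates. The sample titles number the libraries of each group as run 1 and run 2, and the P29 control is a run 1 library. The submitters describe the libraries of a group as biological replicates. Per the study's methods, the runs were sequenced apart and drew on cords that had been collected apart, so run and collection cannot be told apart. The libraries of run 1 held 3332232 to 3954359 counted reads while those of run 2 held 5611197 to 6256074.

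The study itself listed these 3 genes because they were raised at P28+24h in these same 7 libraries. The comparison of P28+24h with the P29 control, and every comparison that shares either group, is therefore not independent evidence of a rise at P28. The comparison of P7+24h with the P8 control had no part in that choice. Levels are given as CPM, the read count brought to a common library total with trimmed mean of M-values (TMM) factors, and are compared within a gene only, since CPM takes no account of gene length. Each CPM carries a 95% exact Poisson interval where one is given. These intervals cover counting error only. In whole cord segments, fewer cells of a type and less RNA per cell cannot be told apart.

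All 3 genes were detected in every library, and all 3 were among the 13534 genes that passed the filter on low counts. They were low to moderate in count. Slit3 had 60 to 264 reads per library, Robo3 had 14 to 78, and Efna4 had 9 to 39. Across the 7 libraries the highest level was 4.22 times the lowest for Slit3, 4.80 times for Robo3 and 8.36 times for Efna4. The 3 genes had 3 features in common. Their levels hardly differed between P8 control and P7+24h cords, they were lower in run 2 than in run 1 in each group that had both (for Robo3 at P28+24h by less than counting error), and among the run 1 libraries they were lowest in the P29 control.

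Slit3 stood at 65.4 CPM (57.7 to 73.7) and 15.5 CPM (12.5 to 18.95) in the run 1 and run 2 libraries of the P8 control. In the P7+24h cords it stood at 59.4 CPM in run 1 and 15.6 CPM in run 2. It was 17.2 CPM (13.2 to 22.2) in the single P29 control, and 52.3 CPM (44.2 to 61.4) and 29.2 CPM (25.1 to 33.8) in run 1 and run 2 of the P28+24h cords. The P29 control therefore lay below both P28+24h libraries, and their counting intervals did not overlap. It also lay within the range spanned by the P8 control libraries. Group means were 40.4 ± 35.3 CPM in the P8 control, 37.5 ± 31.0 CPM at P7+24h and 40.7 ± 16.3 CPM at P28+24h (SD, n = 2 each). These means differed from one another by less than the spread within any of the groups.

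Robo3 read 19.3 CPM (15.3 to 24.1) in run 1 and 8.57 CPM (6.40 to 11.2) in run 2 of the P8 control. At P7+24h it read 19.2 CPM in run 1 and 8.52 CPM in run 2. The P29 control gave 4.02 CPM (2.20 to 6.75) from 14 reads, the lowest level of this gene in the series. The P28+24h cords gave 9.18 CPM in run 1 and 8.43 CPM in run 2. Robo3 in the injured P28 cords was thus above its control in either run, but no higher than the lower of the P8 levels by more than counting error. The group means were 13.9 ± 7.59 CPM in the P8 control, 13.8 ± 7.53 CPM at P7+24h and 8.81 ± 0.531 CPM at P28+24h (SD, n = 2 each).

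Efna4, the ephrin, was the least abundant in reads. The P8 control held 9.41 CPM (6.66 to 12.9) in run 1 and 1.65 CPM (0.790 to 3.03) in run 2, and the P7+24h cords held 9.45 CPM and 2.54 CPM. The P29 control was at 2.59 CPM (1.18 to 4.91), from 9 reads. At P28+24h the run 1 library held 13.8 CPM (9.79 to 18.8), the highest Efna4 level of the series, and the run 2 library held 2.59 CPM (1.48 to 4.21). The 2 injured P28 libraries therefore disagreed on Efna4, because 1 lay far above the P29 control and the other lay level with it. Group means were 5.53 ± 5.49 CPM in the P8 control, 5.998 ± 4.89 CPM at P7+24h and 8.18 ± 7.90 CPM at P28+24h (SD, n = 2 each).

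**Figure D1:**
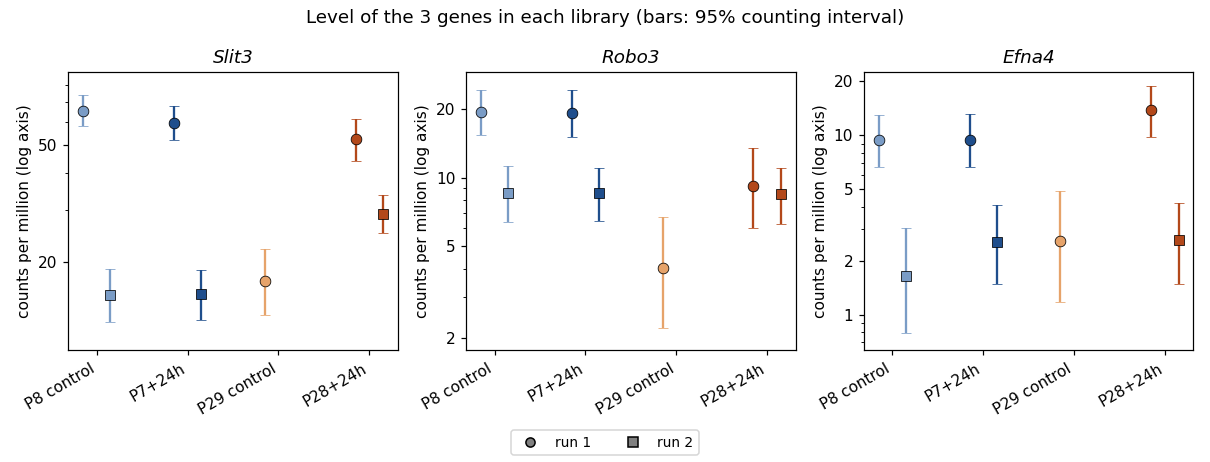
CPM (log axis) of Slit3, Robo3 and Efna4 in each of the 7 libraries, by group, with circles for run 1, squares for run 2 and bars for the 95% counting interval. The run 1 and run 2 symbols of the P8 control and of P7+24h lie far apart for each gene, while the P29 control, with 1 library, lies low for all 3.

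Transection at P7 left the 3 genes near their control levels 24 h later. In run 1 the ratio of P7+24h to P8 control was 0.908 for Slit3 (95% exact interval of the count ratio 0.757 to 1.09), 0.993 for Robo3 (0.712 to 1.38) and 1.01 for Efna4 (0.619 to 1.63). In run 2 it was 1.00 for Slit3 (0.752 to 1.34), 0.995 for Robo3 (0.671 to 1.48) and 1.54 for Efna4 (0.667 to 3.77), the last from 17 against 10 reads. Each of these 6 intervals included no change. With edgeR's quasi-likelihood test over the 4 groups, none of the 3 was called (log2 fold changes of -0.11 ± 0.86, -0.01 ± 0.56 and 0.12 ± 1.15 for Slit3, Robo3 and Efna4, standard errors). The adjusted p was 1 for each. A call here means a Benjamini-Hochberg adjusted p under 0.05 over the 13534 genes tested together with a fold of at least 2, and by that rule 0 genes, 0% of those tested, were called in this comparison, although 69 had an unadjusted p under 0.05 and DESeq2 called 2.

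A term for the run narrowed the P7 estimates. Samples of the same run number deviated together from their group means, so the run was also fitted as a replicate block. With it the log2 fold changes were -0.09 (95% interval -0.68 to 0.50) for Slit3, -0.01 (-0.64 to 0.61) for Robo3 and 0.22 (-0.55 to 0.99) for Efna4, with an adjusted p of 1 for each (edgeR). The run block called 2 genes, 0.0148% of those tested, none of them among the 3. The upper bound for Efna4 was 0.99 on the log2 scale, so that a rise of nearly 2-fold was within its interval, whereas the bounds for Slit3 and Robo3 were closer to no change.

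**Figure D2:**
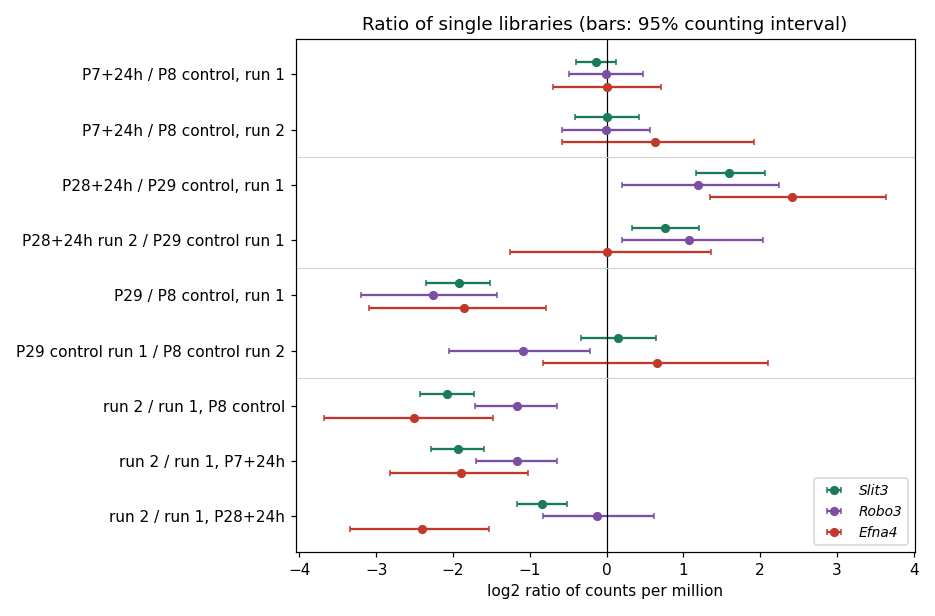
Log2 ratio of CPM between single libraries for the 3 genes, with bars for the 95% counting interval, for injury at P7, injury at P28, control cords of P29 against P8, and run 2 against run 1. The bars of all P7 ratios cross the zero line, the P28 ratios of run 1 lie right of it, and the run 2 to run 1 ratios lie left of it except for Robo3 at P28+24h, whose bar crosses it.

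Transection at P28 was followed by higher levels of all 3 genes in run 1, where control and injured cords can be set side by side. Slit3 was 3.03 times its control level (2.23 to 4.16), Robo3 2.28 times (1.15 to 4.73) and Efna4 5.33 times (2.54 to 12.5, from 39 against 9 reads). None of these intervals included no change, but they come from 1 library each and say nothing of the spread between pups. Of the genes tested, 2.14% had a larger rise than Slit3 in this pair of libraries, 5.03% a larger rise than Robo3 and 0.658% a larger rise than Efna4. Set against the same run 1 control, the run 2 injured library gave ratios of 1.69 for Slit3 (1.26 to 2.31), 2.10 for Robo3 (1.14 to 4.10) and 1.00 for Efna4 (0.417 to 2.58).

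Over all libraries without a run term, the P28 differences were within the error. The log2 fold changes were 1.23 ± 1.14 for Slit3, 1.12 ± 0.78 for Robo3 and 1.60 ± 1.59 for Efna4, each with an adjusted p of 1 (edgeR's quasi-likelihood test). In this fit 0 genes, 0% of those tested, were called at P28, although 157 had an unadjusted p under 0.05, and DESeq2 also called 0. On simulated data the same edgeR fit recovered 0 of 200 genes changed 4-fold at P28. Its lack of calls therefore does not exclude a change of that size. Without the run 1 injured library the log2 fold change fell to 0.75 for Slit3 and to -0.0045 for Efna4.

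With the run as a replicate block, Slit3 was called as raised at P28+24h (log2 fold change 2.02 ± 0.40, adjusted p = 0.0480, edgeR). Efna4 (2.34 ± 0.51, adjusted p = 0.0647) and Robo3 (1.63 ± 0.50, adjusted p = 0.147) missed the threshold in the same fit, although Efna4 was called in each blocked fit that left out 1 library. That fit called 102 genes, 0.754% of those tested, and 79 of them, 0.584%, were raised like Slit3. There was no run 2 control at P29, so the fit took 1 difference between the runs from all the groups that had both. For Slit3 that difference was -2.05 in the P8 control and -1.90 at P7+24h on the log2 scale, but -0.83 at P28+24h. The fitted Slit3 fold of 4.045 lay above both ratios to the P29 control, 3.03 in run 1 and 1.69 for the run 2 library. It therefore depends on the assumption of a common run difference. The likelihood ratio test with the same block, which does not carry the uncertainty of the spread, called all 3 genes (adjusted p = 0.000240 for Slit3, 0.0359 for Robo3 and 0.000770 for Efna4, edgeR), along with 3.64% of all genes. When the block was combined with scaling by library size alone, Slit3 kept its estimate at 2.06 but was no longer called (adjusted p = 0.163).

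**Figure D3:**
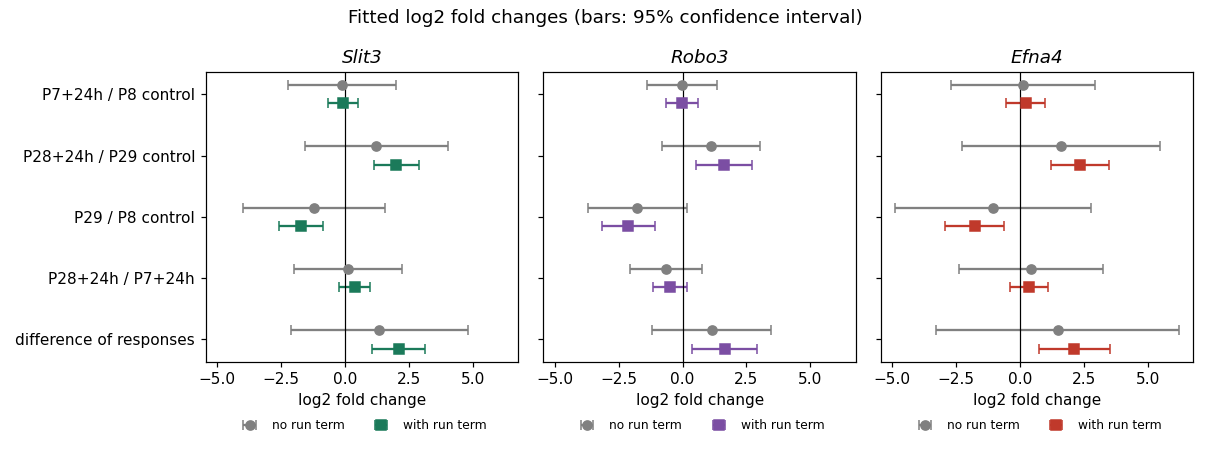
Log2 fold changes of the 3 genes in each comparison, from edgeR's quasi-likelihood fit without a run term (grey circles) and with the run as a replicate block (coloured squares), with bars for the 95% confidence interval. All grey bars cross zero, and the coloured bars clear it for injury at P28, for P29 against P8 control and for the difference of responses, before adjustment over all genes.

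In uninjured cords all 3 genes were lower at P29 than at P8 when libraries of run 1 were compared. Slit3 was 3.79-fold lower (2.85 to 5.10), Robo3 4.80-fold lower (2.70 to 9.18) and Efna4 3.64-fold lower (1.73 to 8.55). Against the run 2 library of the P8 control, the same P29 library gave a ratio of 1.11 for Slit3 (0.791 to 1.56), 0.470 for Robo3 (0.240 to 0.860) and 1.57 for Efna4 (0.564 to 4.30). Only Robo3 was thus lower at P29 than in both P8 libraries by more than counting error.

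Without a run term none of the 3 genes was called in this comparison of ages. The log2 fold changes were -1.22 ± 1.14 for Slit3 (adjusted p = 0.590), -1.78 ± 0.79 for Robo3 (adjusted p = 0.297) and -1.05 ± 1.57 for Efna4 (adjusted p = 0.744), all by edgeR's quasi-likelihood test, which called 242 genes, 1.79% of those tested. Without the run 1 library of the P8 control, Slit3 stood at 0.15 and Efna4 at 0.64 on the log2 scale, above zero, and Robo3 at -1.09. With the run block all 3 were called as lowered. Slit3 fell by 1.73 on the log2 scale (standard error 0.38, adjusted p = 0.00700), Robo3 fell by 2.13 (0.47, adjusted p = 0.00705) and Efna4 fell by 1.78 (0.52, adjusted p = 0.0263, edgeR). The block called 2893 genes in this comparison, 21.4% of those tested, of which 1203, 8.89%, were lowered. These calls rest on the same P29 library as the calls at P28+24h, and a low value in that library moves the maturation estimate down and the injury estimate up together.

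Between injured cords of the 2 ages none of the 3 genes was called, and the runs gave unlike ratios. In run 1 Slit3 at P28+24h was 0.881 times its level at P7+24h (0.711 to 1.09), Robo3 0.479 times (0.294 to 0.759) and Efna4 1.46 times (0.902 to 2.36). In run 2 the ratios were 1.88 for Slit3 (1.47 to 2.41), 0.989 for Robo3 (0.666 to 1.47) and 1.02 for Efna4 (0.483 to 2.15). Slit3 thus differed beyond counting error in run 2 and Robo3 in run 1, and neither gene did so in the other run. None was called without the block (log2 fold changes 0.12, -0.64 and 0.43 in the order Slit3, Robo3, Efna4, adjusted p = 0.952, 0.584 and 0.862), where edgeR called 2.81% of genes. None was called with it either (0.37, -0.48 and 0.35, adjusted p = 0.287, 0.228 and 0.434, edgeR), where 22.6% of genes were.

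The difference between the response at P28 and that at P7 was tested directly as an interaction. Slit3 gave 1.34 ± 1.42, Robo3 1.13 ± 0.96 and Efna4 1.48 ± 1.94 on the log2 scale, each with an adjusted p of 1.00 (edgeR's quasi-likelihood test). In that fit 0% of genes were called, 59 had an unadjusted p under 0.05, and DESeq2 also called 0. With the run block the differences rose to 2.10 ± 0.47, 1.65 ± 0.58 and 2.13 ± 0.63, with adjusted p = 0.198, 0.396 and 0.288 in the order Slit3, Robo3, Efna4, and none was called, against 0.0369% of all genes. The likelihood ratio test with the block called Slit3 (adjusted p = 0.00663, edgeR) and 1.48% of all genes, but neither Robo3 (adjusted p = 0.176) nor Efna4 (adjusted p = 0.0551). The quasi-likelihood fits on all 7 libraries thus made no call of a difference between the ages in the response of any of the 3 genes, although some blocked fits that left out 1 library did.

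The difference between the runs was of the same order as the differences between groups. In the P8 control, run 2 was lower than run 1 by 4.22-fold for Slit3 (3.32 to 5.40), 2.25-fold for Robo3 (1.57 to 3.27) and 5.71-fold for Efna4 (2.79 to 12.8). At P7+24h it was lower by 3.82-fold, 2.25-fold and 3.72-fold in the same order of genes. At P28+24h it was lower by 1.79-fold for Slit3 (1.43 to 2.24) and 5.31-fold for Efna4 (2.90 to 10.2), but by only 1.09-fold for Robo3 (0.653 to 1.78), which was within counting error. For Slit3 the interval in the injured P28 cords did not overlap that in the P8 control, and for Robo3 and Efna4 the intervals overlapped.

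The run term, tested after the values had been seen, was called as lowered for Slit3 (log2 difference of run 2 from run 1 of -1.61 ± 0.22, adjusted p = 0.000296) and Efna4 (-2.24 ± 0.28, adjusted p = 0.000180). Robo3 (-0.88 ± 0.24, adjusted p = 0.0123, edgeR) passed on p and missed the 2-fold limit. The run term was called for 2486 genes, 18.4% of those tested, with 1528 higher in run 2 and 958, 7.08%, lower. All 3 genes were lower in run 2 in each of the 3 groups, as were 34.8% of the genes tested. Of the genes tested, 24.8% were like the 3 members in having their lowest run 1 level in the P29 control. The study had listed the 3 genes for a rise over that control. The folds it gave for them lay nearer to the blocked estimates than to those without a run term. A blocked estimate also rests on the run difference in the other groups. Both the fall in run 2 and the low P29 control may therefore follow in part from how the 3 genes were picked.

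A list of nuclear-retained and splicing transcripts, of which 9 of 15 could be found in the table, also differed by run and was low in the P29 control among the run 1 libraries. These are messages such as Clk1, Ccnl1, Nktr and Pnisr, of which a large part is known to stay in the nucleus, so that their level relates to the kind of RNA a library holds. Their summed level in run 1 was 1484 CPM in the P8 control, 1243 CPM at P7+24h, 656 CPM in the P29 control and 1889 CPM at P28+24h. In run 2 it was 426, 393 and 715 CPM in the P8 control, P7+24h and P28+24h cords. The list was thus higher at P28+24h than in the P8 control in both runs. Efna4 was too, though within counting error (ratios of 1.46 in run 1 and 1.57 in run 2). Slit3 was higher in run 2 only (1.88), and Robo3 in neither. All 9 were lower in run 2 than in run 1 in each of the 3 groups, as were 34.8% of the genes tested. All 9 were also lower in the run 1 P29 control than in the run 1 libraries of the P8 control and of P28+24h. The same held for 27.1% of the genes tested. In run 2 only 5 of the 9 were above the P29 control at P28+24h. The identifiers of the 9 came from the study's list of genes changed at P28+24h, so every value that uses the P28+24h or P29 control libraries, the run difference at P28+24h included, follows in part from that choice. Their run difference in the P8 control and P7+24h cords used none of those libraries. Across genes, however, it correlated with the run difference at P28+24h, at 0.70 for the P8 control and 0.74 for P7+24h. It is therefore not independent of the choice either. The part of such a shift in the levels of Slit3, Robo3 and Efna4 was not tested.

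**Figure D4:**
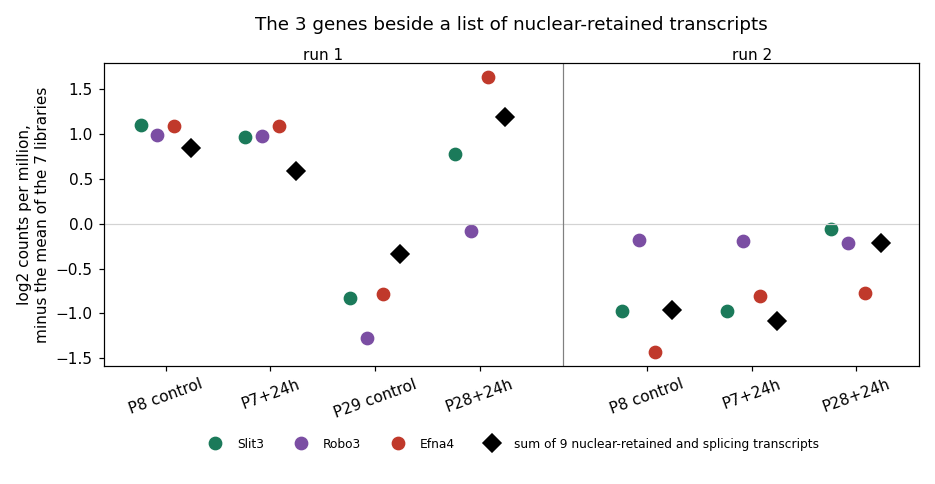
Log2 CPM of Slit3, Robo3, Efna4 and of the sum of 9 nuclear-retained and splicing transcripts (black diamonds), each less its own mean over the 7 libraries, for the 4 run 1 libraries on the left and the 3 run 2 libraries on the right. The diamonds are low in the P29 control among the run 1 libraries and low in run 2, and Robo3 departs from them most at P28+24h in run 1.

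Markers of other tissues and cells also differed between the libraries. The summed level of the skeletal muscle list (11 of 11 found) was 15.7 to 30.7 CPM in the P8 control, P7+24h and P29 control libraries and 216 and 83.5 CPM in run 1 and run 2 at P28+24h. Microglia and macrophage markers (7 of 7 found) summed to 28.7 and 31.3 CPM in the P8 control, 96.9 and 121 CPM at P7+24h, 139 CPM in the P29 control and 467 and 290 CPM at P28+24h. The erythroid list (5 of 5 found) was between 56.1 and 529 CPM, with the highest sum in the run 1 library of P28+24h. For each of these lists the run 1 library of P28+24h, which held the highest Efna4, was the highest of the 7. The identifiers of these lists came from the study's supplementary tables, which include its lists of changed genes. Their levels at P28+24h therefore follow in part from that choice, although not every marker was a changed gene. Of these lists, the markers at 0 were Trem2 in the run 1 P8 control, the muscle genes Myh4 and Trdn in 1 library each, and 1 alpha globin entry in every library and another in run 2 at P7+24h. Their part in the levels of the 3 genes was not tested.

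The cells that carry these genes in the cord could not be followed as closely. Of the motor neuron list only Slc18a3, the vesicular acetylcholine transporter, was found (1 of 7), at 40.3 CPM in the run 1 library of P28+24h and 74.6 to 153 CPM in the others. No gene of the floor plate or general neuron lists could be matched to an identifier. The labelled tissue was checked with 4 oligodendrocyte genes, which were detected in every library and summed to 110 to 339 CPM at P8 and 48705 to 90002 CPM at P29.

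The wider guidance families could be followed only where the study had paired a symbol with an identifier. That gave 2 of the 7 Slit and Roundabout genes, which are Slit3 and Robo3 themselves, 1 of 5 ephrin-A ligands, which is Efna4, 1 of 9 EphA receptors and 3 of 20 semaphorin ligands. All 28 further guidance and neurite genes so found had been listed by the study for a difference at P28+24h, so their P28 values are a description. With the run block, 0 of the 28 were called at P7, against 0.0148% of all genes, and their P7 estimates ran from -0.46 to 0.32 on the log2 scale.

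Epha7, a receptor for ephrin-A ligands, followed a course like that of Efna4 in run 1 but with a smaller step between the runs in the P8 control and P7+24h cords. It stood at 58.4 and 47.0 CPM in run 1 and run 2 of the P8 control, 44.9 and 45.6 CPM at P7+24h, 22.7 CPM in the P29 control, and 53.7 and 24.6 CPM at P28+24h. In run 2 the injured P28 cord was thus close to the P29 control for receptor and ligand alike. With the block Epha7 fell by 1.43 on the log2 scale between P8 and P29 controls (adjusted p = 0.0106), and its P28 estimate of 0.92 was not called (adjusted p = 0.222, edgeR).

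The 3 of 20 semaphorin ligands found, from another family of repellent and attractive cues, went the other way between the runs. The study had listed Sema4f and Sema5a as lowered at P28+24h. Their direction, between the runs included, may therefore follow in part from that choice and does not speak for the family. Sema4f, Sema5a and Sema7a were each higher in run 2 than in run 1, and the run term was called for all 3, with differences of 1.33 to 2.44 on the log2 scale. Sema5a, for example, stood at 7.43 and 31.8 CPM in run 1 and run 2 of the P8 control, 16.7 CPM in the P29 control, and 8.12 and 36.97 CPM at P28+24h. With the block the 3 had P28 estimates of -1.22 to -0.94, none of them called. In run 2 the injured P28 cords held more of each of the 3 than the run 1 control did. Without a run term the estimates were -0.27 for Sema4f, 0.46 for Sema5a and -0.08 for Sema7a, so that only Sema5a changed direction between the fits.

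The 2 injured P28 libraries also differed for many of the 28 genes. Of the 12 with a P28 estimate above zero in the block, 12 exceeded the P29 control in run 1 and 11 did so in run 2, with medians of 1.25 and 0.16 on the log2 scale. Of the 16 with an estimate below zero, 16 were lower in run 1 but only 4 in run 2, where the median was 0.27. The block's estimate uses these same libraries, so the run 1 counts follow in large part from the split. The run 2 counts were set against the run 1 control and so carry the difference between the runs. For Slit3 and Robo3 the direction was upward in both injured libraries, and for Efna4 it was upward in run 1 alone.

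Among the genes of the study's axon growth and guidance list, 18 of 21 were found, Slit3 and Robo3 included. With the block, 2 of the 18 were called as raised at P28+24h, Slit3 and Sgsm3, and 2 as lowered, Olig2 and Plekhb1, where 0.754% of all genes were called and 0.584% were raised. The median of the 18 was 0.05 on the log2 scale against -0.0038 over all genes. Of the neurite inhibition and myelin list, which holds Efna4, 10 of 13 were found, none was called at P28+24h with the block, and the median was 0.04. These lists were drawn by the study from these samples, so the counts are not independent evidence of direction.

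The members resembled one another in unequal degree. Over the 7 libraries, which share runs, depth and groups, Pearson's r of log2 CPM was 0.92 between Slit3 and Efna4, 0.77 between Slit3 and Robo3 and 0.63 between Robo3 and Efna4. Of the genes tested, 0.894% were more like Slit3 than Efna4 was, and 5.05% were more like Slit3 than Robo3 was. Among genes with a symbol, those most like Slit3 were Dgkz (r = 0.98), Rfx1, Itga2b, Kiaa1731 and Slc9a5. Those most like Robo3 were Adam11 (0.98), Hoxd4, Ankrd10, Speg and Ano8, and those most like Efna4 were Camkk1 (1.00), Itgb1bp2, Ndst2, Cpt2 and Lonrf3. These 15 genes were all lower in run 2 than in run 1 in the P8 control and at P7+24h, and all were lower in the run 1 P29 control than in the run 1 P28+24h library. In run 2 at P28+24h, all 5 companions of Slit3 and all 5 of Robo3 were above the P29 control, but only 2 of the 5 companions of Efna4 were. The measure of likeness uses every library, so this split follows the levels of the 3 genes themselves.

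Reads of neighbouring genes could bear on these counts. In the RefSeq annotation of the mMonDom1 assembly, which is not the one used for counting, the span of Slit3 holds the microRNA gene MIR218-2 and a long non-coding RNA. Robo3 lies next to Robo4 and Msantd2 and overlaps neither, and Efna4 lies between Efna3 and Adam15 and overlaps neither. Adam15, which encodes a membrane metalloproteinase and was named here after its values were seen, stood at 55.0 and 23.2 CPM in run 1 and run 2 of the P8 control, 38.1 and 29.6 CPM at P7+24h, 58.05 CPM in the P29 control, and 97.5 and 85.0 CPM at P28+24h. Adam15 was as high in the run 1 P29 control as in the run 1 P8 control, at a ratio of 1.06 (0.869 to 1.28). It was above the P29 control in both injured P28 libraries, by 1.68 times in run 1 and 1.46 times in run 2. Like Efna4, it was lower in run 2 than in run 1 of the P8 control, at a ratio of 0.423. The part of neighbouring reads in the counts of the 3 genes was not tested.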

How the data were processed

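Whole-number read counts per gene were used as deposited; the authors had aligned 100 bp single reads with Bowtie2, counted them with HTSeq against Ensembl release 69 genes and tested them with edgeR 2.6.12. Gene symbols were taken from the study's supplementary tables, which pair 669 identifiers of the table with a symbol. Here the counts of all 7 libraries were fitted over 4 groups in edgeR 4.0.16 (R 4.3.3) with TMM factors, a minimum count of 10 by filterByExpr and the quasi-likelihood test. The P29 control, with 1 library, took its spread from the other groups. Its blocked value assumes 1 step between runs for all groups. Standard errors were derived from the F statistic. CPM was computed over the TMM-scaled total of the tested genes. Library totals ran from 3332232 to 6256074, so 3 reads corresponded to 0.449 to 1.06 CPM. Ratios of single libraries carry exact binomial intervals.

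The run number was fitted as a replicate block as an alternative, because the titles name it as a run. Deviations from the group means correlated across genes between same-numbered libraries, at 0.80, 0.70 and 0.74 for the 3 pairs of groups with both runs, and the block lowered the common dispersion from 0.141 to 0.0181, with 2 residual degrees of freedom in place of 3. DESeq2 1.42.0, exact tests, other scalings, filters, thinning and leaving out libraries were further alternatives. Each p-value rests on the spread between pools of pups in the groups with 2 libraries, since the P29 control gives none. Without a run term that spread includes the difference between the runs. With the block it is what the common run step leaves over. At P7 injured and control pups came from separate litters, so litter and injury cannot be told apart there. The 3 genes, the gene lists and the tests were chosen with earlier results of these data known. The genes named as alike were the 5 with a symbol and the highest correlation to each member, and the guidance genes named were all those of the lists with an identifier that a statement turns on. The fits were tested on simulated data for injury at P28, with 200 of 13534 genes changed. Without a run term 0 of the 200 were recovered at a 2-fold change and 0 at a 4-fold change, with 0 false calls. With the block 44 were recovered at 2-fold and 156 at 4-fold, with 1 and 7 false calls. The lack of calls at P28 without a run term therefore does not exclude changes of that size. The simulated counts were drawn from the means of the blocked fit, so they held 1 step between runs for all groups. They cannot show how the block performs where that step differs between groups, as it did for Slit3.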

Additional observations from a re-analysis of the deposited data

How the results depend on the processing

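Without a run term none of the 3 genes was called in any comparison under any test, scaling, filter, depth or left-out library tried, and the calls came with the replicate block. Left-out libraries apart, all other values of the 3 genes kept their direction and their side of the threshold, except those given here. At P28 the log2 fold change with the replicate block was 2.02 for Slit3, 2.00 with RLE factors and 2.03 by the likelihood ratio test, which also called Robo3 at 1.62 and Efna4 at 2.35. In P29 against P8 control cords the block gave -1.73, -2.13 and -1.78 for Slit3, Robo3 and Efna4, the likelihood ratio test -1.72, -2.12 and -1.78, RLE factors with the block -1.74, -2.14 and -1.79, and library size alone with the block -1.99, -2.39 and -2.04, all of them calls. Library size alone moved the median of all genes in that comparison to -0.27 with the block, and these values are relative to that shift. The likelihood ratio test called the difference of responses for Slit3 at 2.11. Library size alone turned Slit3 between injured cords of the 2 ages to -0.10, and put Robo3 in the run 1 library of P28+24h at 7.80 CPM. The fits with block and another scaling, or with block and a left-out library, were chosen after seeing the data.

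Leaving out each library in turn, with and without the block, a lone library being assumed to vary like the other groups, the estimates at P7 ran from -1.37 to 1.26 for Slit3, from -0.70 to 0.68 for Robo3 and from -1.08 to 1.81 for Efna4. At P28 they ran from 0.75 to 2.76, from 1.05 to 2.23 and from -0.0045 to 2.42 in that order of genes. Between control ages they ran from -1.92 to 0.15, from -2.26 to -1.09 and from -1.85 to 0.64, between injured ages from -0.55 to 1.38, from -1.12 to 0.0405 and from -1.16 to 1.61, and for the difference of responses from -0.0342 to 2.86, from 0.44 to 2.26 and from -0.22 to 2.67. With the block and 1 library less, 1 residual degree of freedom remained, so the p-values of those fits are weak ground. Efna4 at P28 was called in each of the 6 (log2 2.16 to 2.42, adjusted p = 0.000127 to 0.0405, edgeR). Robo3 was called at P28 (2.23, adjusted p = 0.000142) and in the difference of responses (2.26, adjusted p = 0.000840) without the run 1 library of P28+24h, and between injured ages without its run 2 library (-1.12, adjusted p = 0.00301). The difference of responses was called for Slit3 in 4 of the 6 (adjusted p = 4.79e-16 to 0.247 over the 6) and for Efna4 without the run 2 library of P28+24h (adjusted p = 0.00890). The Efna4 call between control ages was lost without the run 1 library of the P8 control (adjusted p = 0.294, edgeR). The number of genes called ran over all settings from 0 to 51 at P7, 0 to 960 at P28, 0 to 3468 between control ages, 0 to 3634 between injured ages and 0 to 720 for the difference of responses. Efna4 and Robo3 had 9 and 14 reads in the P29 control, which has no second library.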
